A study of Homo sapiens with 6 samples.

Results

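The genes described here are 44 genes of protein folding and the unfolded protein response in the endoplasmic reticulum (ER). They were taken by gene symbol from a table of 58037 gene rows. Genes and roles were chosen with earlier results of these data known. By known function the genes fall into 6 roles. These are sensors and transcription factors, chaperones and co-chaperones, protein disulfide isomerases, ER-associated degradation, translocation with signal peptide cleavage, and export in COPII vesicles. The genes were measured in HepaRG, a human hepatic line derived from a liver tumour that differentiates in culture into hepatocyte-like and biliary-like cells. Fatty acid cultures (n = 3 libraries) received 0.5 mM palmitate and oleate, 1 part to 2, bound to bovine serum albumin (BSA, 0.02%), for 72 h. Control cultures (n = 3 libraries) received BSA alone, also at 0.02% and for 72 h. Cells of both groups were of passages 15 to 18, had been grown for 14 days, differentiated for 14 days and then held for 5 days in basal medium with insulin and hydrocortisone. All 6 libraries come from this 1 line, and nothing in the labels says that replicates were separate cultures; the p-values therefore reflect only differences between these libraries, which may be technical. The stated purpose of the study is the dysregulation of drug-metabolising enzymes under fatty acid load.

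Secreted and membrane proteins enter the ER through the Sec61 channel, lose their signal peptide, are folded by lectin and heat shock chaperones and disulfide isomerases, and leave in COPII vesicles or are sent back to the cytosol for degradation. When folding demand exceeds capacity, 3 membrane sensors start the unfolded protein response: IRE1 (ERN1) splices XBP1 mRNA, ATF6 is cut in the Golgi into a transcription factor, and PERK (EIF2AK3) phosphorylates eIF2α and favours translation of ATF4. Spliced XBP1 and cleaved ATF6 induce most ER chaperones and degradation genes, while the PERK branch induces DDIT3 (CHOP) and TRIB3. Hepatocytes secrete most plasma proteins and so depend heavily on this machinery, and saturated fatty acids such as palmitate are known to provoke the response in liver cells, whereas oleate is known to blunt it.

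Of the 44 genes, 43 passed the expression minimum (mean of at least 0.5 FPKM, fragments per kilobase of gene length and per 1 M reads) and were tested. Transcripts of 24 were higher in fatty acid libraries and of 0 were lower at an adjusted p under 0.05 in limma, with 19 not called. Across all 14661 genes tested, 1205 were called higher (8.22%) and 686 lower (4.68%), and of the 43 ER genes 55.8% were called higher. The rises were small. Log2 fold changes of the 24 called genes ran between 0.24 and 0.60 (1.18-fold to 1.52-fold), with a median of 0.44, and 0 of them reached 1. Over all 43 tested genes the median was 0.30, beside 0.04 for all genes tested, and 41 log2 fold changes were above 0; the other 2, SYVN1 and SPCS1, were slightly below 0 and not called. In 30 of the 43 genes every fatty acid library was above every control library, beside 23.7% of all genes tested, and SPCS1 was the 1 gene with every fatty acid library below every control library, a pattern seen in 13.3% of all genes tested. Groups that did not overlap, in either direction, made up 37.1% of all genes tested.

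**Figure D1:**
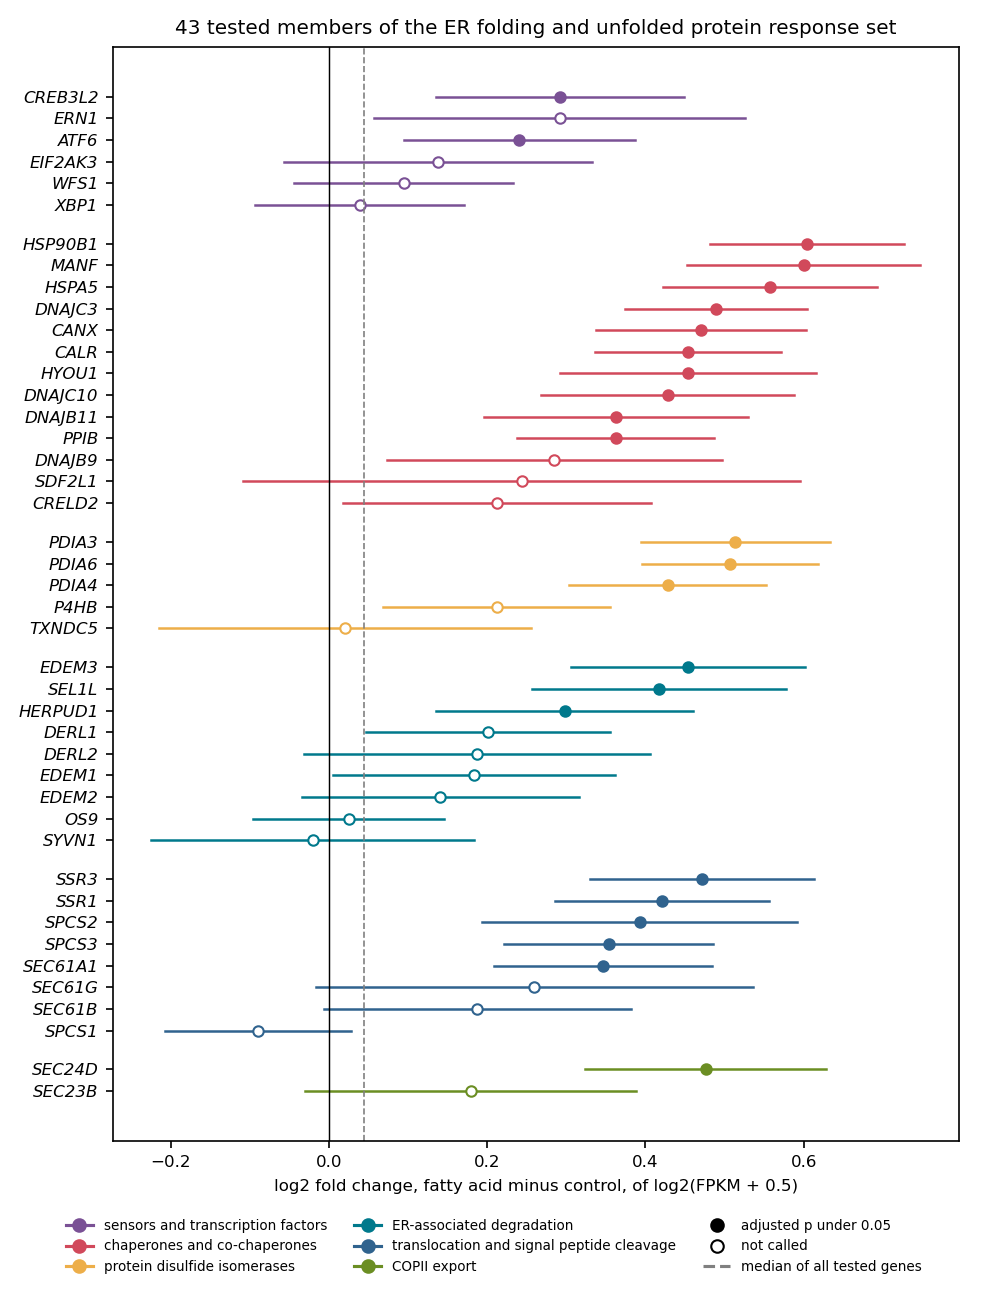
Log2 fold change (fatty acid minus control, x axis) of the 43 tested genes, grouped by role from top to bottom, with points for the estimate, bars for the 95% interval of limma, and filled points for an adjusted p under 0.05. The chaperones and disulfide isomerases hold the largest rises, up to 0.60, while XBP1, OS9, TXNDC5 and SYVN1 sit at about 0.

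The number of ER genes called higher was 21 to 28 under the 4 other scalings tried, with 0 lower in each, although the split over all genes moved between 695 higher with 820 lower (scaling to nuclear reads) and 2231 higher with 377 lower (TPM). Without fatty acid replicate 1 it was 14, when 463 genes were called in all. Fatty acid replicate 2 was the highest of its group in 19 of the 24 called genes, and replicate 3 the lowest in 21.

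Library depth, recovered from the table as whole reads, was 8.36 to 15.94 M for fatty acid and 6.33 to 11.82 M for control libraries, and the lowest read number behind any called gene of the 44 was 198. Mitochondrially encoded genes took 10.3 ± 1.43% of reads in fatty acid and 13.6 ± 1.37% in control libraries (SD, n = 3 each). The summed level of 16 hepatocyte markers was 16919 to 17375 FPKM in fatty acid libraries, against 20065 to 20880.4 FPKM in control libraries. ALB alone averaged 7127 FPKM in fatty acid and 12025 FPKM in control libraries, a larger drop than that of the sum. Of the 16 markers, 11 were called lower and 4 higher, the latter being the abundant SERPINA1, FGA, FGB and HP. Sums of 12 biliary and progenitor markers were 425 to 441 FPKM in fatty acid and 444 to 519 FPKM in control libraries (EPCAM at 0; 1 of 6 tested lower), and those of 11 mesenchymal markers 119 to 127 FPKM in fatty acid and 102 to 112 FPKM in control libraries (THY1 at 0; 1 of 8 tested higher). For 12 immune and endothelial markers the sums were 38.4 to 40.4 FPKM in fatty acid and 49.9 to 54.6 FPKM in control libraries. Nearly all of this was KDR, called lower, at 25.6 FPKM in fatty acid and 40.7 FPKM in control libraries, and CD14. CD14 was not called, at 12.7 FPKM in fatty acid and 10.6 FPKM in control libraries. The 10 other markers were below the expression minimum and not tested, with CD3E and CDH5 among those at 0. The part of these shifts in the results below was not tested, and in bulk RNA fewer cells of a type and less RNA per cell cannot be told apart.

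Promoter stretches are shown first, because many of these genes are known targets of factors that bind the elements printed. The ER stress response element (ERSE) joins a CCAAT box, bound by NF-Y, to CCACG, bound by ATF6, and ERSE-II is its compact form. Each was searched on both strands in the 250 bases before RefSeq gene starts (build GRCh38.p14), which matched 39 of the 44 genes; DERL1, DERL3, PDIA3, SEC24D and SPCS1 were not matched. ERSE, spelled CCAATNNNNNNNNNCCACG, was present in 7 of the 39 (17.9%), against 25 of all 27305 genes in the table (0.0916%; 26 of 35116 promoters, 0.074%). ERSE-II, spelled ATTGGNCCACG, was present in 3 of the 39 (7.69%), against 18 of 27305 genes (0.0659%; 0.0513% of promoters). The core TGACGTG, part of the site that XBP1 and ATF6 can also bind, was found in DNAJC10, HYOU1, SSR3 and TXNDC5 (10.3%), against 561 of 27305 genes (2.05%; 1.68% of promoters). In HYOU1 this core overlaps the more distant of its ERSE-II matches. As many of the 44 genes are known targets, these shares describe the list and are no result of the libraries.

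The 7 genes with ERSE were the chaperones HSPA5, HSP90B1, CALR and CANX, CRELD2 of the same role, the isomerase PDIA6 and the transcription factor XBP1. Each stretch below is read 5′ to 3′ along the gene's own strand, with the element in capitals; where the match lies on the opposite strand its capitals start with CGTGG. HSP90B1 holds an element in each direction, at 194 to 176 and 89 to 71 bases before its start, and the HSPA5 element lies at 66 to 48 bases before the start.
HSPA5, chr9:125241385-125241415, minus strand: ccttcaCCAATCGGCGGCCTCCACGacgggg
HSP90B1, chr12:103930210-103930345, plus strand: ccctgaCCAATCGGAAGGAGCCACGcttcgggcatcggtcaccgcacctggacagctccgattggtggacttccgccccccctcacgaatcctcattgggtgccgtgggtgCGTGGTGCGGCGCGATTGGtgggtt
CALR, chr19:12938378-12938408, plus strand: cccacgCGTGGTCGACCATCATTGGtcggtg
CANX, chr5:179698772-179698802, plus strand: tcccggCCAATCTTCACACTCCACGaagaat
CRELD2, chr22:49918548-49918578, plus strand: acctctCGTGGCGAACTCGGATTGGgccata
PDIA6, chr2:10812847-10812877, minus strand: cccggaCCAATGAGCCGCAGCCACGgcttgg
XBP1, chr22:28800597-28800627, minus strand: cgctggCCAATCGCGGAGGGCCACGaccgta

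The 3 genes with ERSE-II were HYOU1, with copies at 185 to 175 and 79 to 69 bases before its start, HERPUD1 and SDF2L1. In the stretches below the element is again in capitals, reading ATTGG first on the gene's own strand and CGTGG first on the other.
HYOU1, chr11:119057268-119057396, minus strand: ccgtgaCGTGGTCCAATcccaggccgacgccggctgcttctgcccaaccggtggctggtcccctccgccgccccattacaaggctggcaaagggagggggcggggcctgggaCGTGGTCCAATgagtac
HERPUD1, chr16:56932019-56932041, plus strand: acgccgATTGGGCCACGttggga
SDF2L1, chr22:21642108-21642130, plus strand: cggaagCGTGGACCAATcaaaac

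Of the 10 genes with ERSE or ERSE-II, 7 were called higher in fatty acid libraries, with a median log2 fold change of 0.45 over the 10. XBP1, CRELD2 and SDF2L1 were not called. Of the 29 other genes with a matched promoter, 15 were called higher, with a median of 0.29. Across all genes tested 8.22% were called higher. The lowest mean level was 16.8 FPKM among the 10 and 2.86 FPKM among the 29, and no test compared them. Of 19 tested genes outside the list that held an element, 4 were higher and 1 lower, with a median of 0.02. These matches describe letters in a window, and no match says nothing of the factors.

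**Figure D2:**
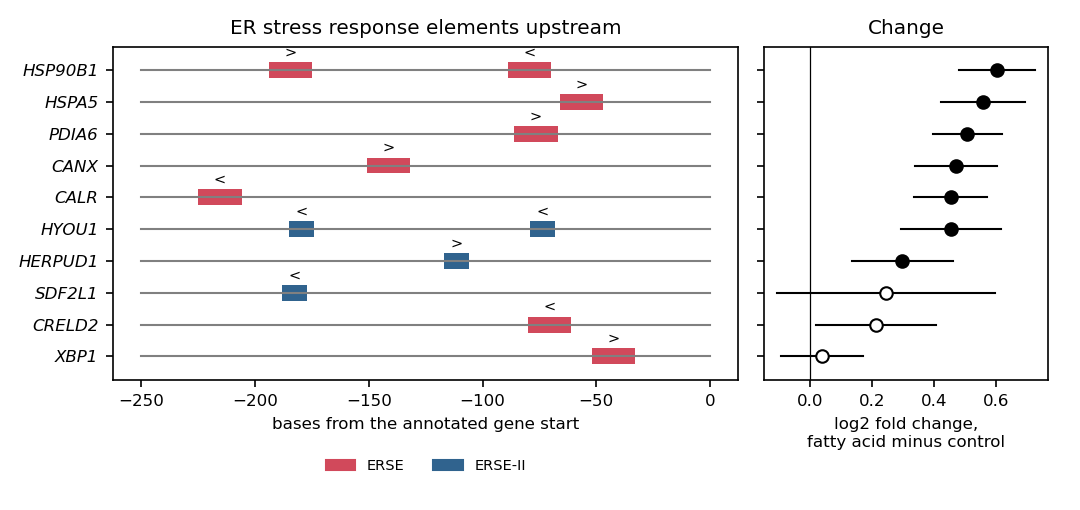
Left, positions of ERSE (red) and ERSE-II (blue) in the 250 bases before the start of the 10 genes that hold one (x axis, bases from a RefSeq start; arrowheads give the strand); right, log2 fold change (fatty acid minus control) with its 95% interval, filled where the adjusted p was under 0.05. ERSE lies nearest the start in XBP1, which was not called, and farthest in CALR, which was.

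The chaperones and co-chaperones held the most calls: 10 of 13 were higher in fatty acid libraries and 0 lower, with a median log2 fold change of 0.45, and all 13 estimates were above 0. Their summed level was 2041 ± 61.7 FPKM in fatty acid and 1454 ± 28.7 FPKM in control libraries (SD, n = 3 each), a ratio of 1.40. HSP90B1 (chr12:103930107-103953645), which encodes GRP94, the HSP90 of the ER lumen, had 417, 424 and 397 FPKM in the fatty acid libraries, against 261, 281 and 272 FPKM in the control libraries. HSPA5 (chr9:125234853-125241330), which encodes BiP, the HSP70 of the lumen and the repressor of all 3 sensors, had 363, 379.7 and 338 FPKM in the fatty acid libraries, against 253, 240.1 and 240.2 FPKM in the control libraries. The lowest fatty acid library was 1.41 times the highest control library for HSP90B1 and 1.34 times for HSPA5. HSP90B1 averaged 413 ± 14.2 FPKM in fatty acid libraries and 271 ± 10.1 FPKM in control libraries, a log2 fold change of 0.60 ± 0.05 (SE; limma adjusted p = 0.000672). HSPA5 averaged 360.1 ± 21.1 FPKM in fatty acid libraries and 244 ± 7.21 FPKM in control libraries, a log2 fold change of 0.56 ± 0.06 (adjusted p = 0.00167).

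The lectin chaperones that hold monoglucosylated glycoproteins rose together. Calreticulin (CALR), the soluble one and the most abundant of the 44 genes by FPKM, had 587, 588 and 575 FPKM in the fatty acid libraries, against 446, 420.2 and 412 FPKM in the control libraries. Calnexin (CANX), its membrane-bound partner, had 211, 220.2 and 201 FPKM in the fatty acid libraries, against 146, 159.6 and 149.7 FPKM in the control libraries. The groups lay apart in both, and control replicate 1 was the highest control for CALR but the lowest for CANX. The log2 fold change was 0.45 ± 0.05 for CALR (adjusted p = 0.00220) and 0.47 ± 0.06 for CANX (adjusted p = 0.00325). PPIB, cyclophilin B, a proline isomerase of the lumen, had 218, 218 and 214 FPKM in the fatty acid libraries, against 173, 175 and 158 FPKM in the control libraries. All 3 fatty acid libraries were above the controls, with a log2 fold change of 0.36 ± 0.05 (adjusted p = 0.00739). Without fatty acid replicate 1 its adjusted p was 0.0502, and 27.2% of its exonic bases overlap a gene on the opposite strand.

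BiP works with J-domain partners, with nucleotide exchange factors and with stress-secreted cofactors. DNAJC3, the J-protein p58IPK, had 38.96, 40.5 and 38.3 FPKM in the fatty acid libraries, against 28.5, 27.7 and 27.2 FPKM in the control libraries. DNAJC10, the reductase ERdj5, had 8.07, 7.902 and 7.52 FPKM in the fatty acid libraries, against 5.33, 5.898 and 5.86 FPKM in the control libraries. DNAJB11, the J-protein ERdj3, had 10.8, 11.3 and 10.9 FPKM in the fatty acid libraries, against 8.78, 7.69 and 8.93 FPKM in the control libraries. The fatty acid libraries were the 3 highest in each of the J-protein genes, at much lower FPKM than HSPA5. Log2 fold changes were 0.49 ± 0.05 for DNAJC3 (adjusted p = 0.00138), 0.43 ± 0.07 for DNAJC10 (adjusted p = 0.0100) and 0.36 ± 0.07 for DNAJB11 (adjusted p = 0.0204). The call of DNAJB11 was lost when any 1 fatty acid replicate was left out (adjusted p 0.0611 to 0.0912), and that of DNAJC10 without fatty acid replicate 1 (0.0601) or 2 (0.0553).

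HYOU1, the exchange factor GRP170, had 65.04, 68.97 and 62.2 FPKM in the fatty acid libraries, against 51.9, 45.8 and 45.3 FPKM in the control libraries. MANF, a small secreted BiP cofactor and neurotrophic factor, had 53.9, 59.01 and 55.6 FPKM in the fatty acid libraries, against 34.3, 38.4 and 38.03 FPKM in the control libraries. Neither gene's groups overlapped, and MANF had the widest gap relative to its level after HSP90B1. The fit gave log2 fold changes of 0.45 ± 0.07 for HYOU1 (adjusted p = 0.00854) and 0.60 ± 0.06 for MANF (adjusted p = 0.00176). The 3 chaperone genes not called were DNAJB9, CRELD2 and SDF2L1. DNAJB9, the J-protein ERdj4 and a known target of spliced XBP1, had a log2 fold change of 0.28 ± 0.09 (adjusted p = 0.0807), which passed the threshold under TPM (0.0275), voom (0.0218) and the replicate block (0.0435). SDF2L1 had 33.1, 30.3 and 29.8 FPKM in the fatty acid libraries, against 33.7, 21.1 and 25.02 FPKM in the control libraries, and control replicate 1 lay above all 3 fatty acid libraries. Its log2 fold change was 0.24 ± 0.15 (adjusted p = 0.315), and without control replicate 1 the adjusted p was 0.0262. CRELD2 gave 0.21 ± 0.08 (adjusted p = 0.136), and 0.0328 without that library.

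**Figure D3:**
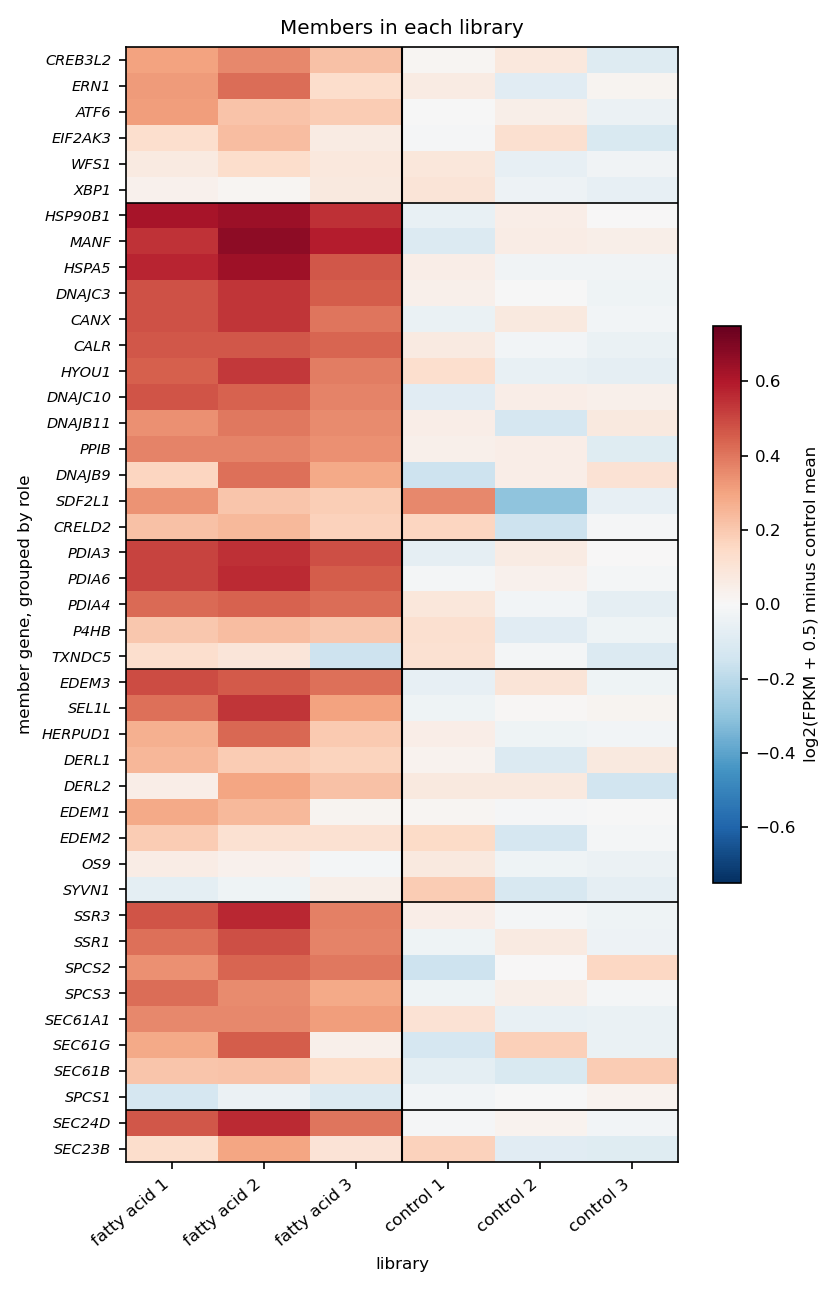
Each tested gene (rows, by role) in each of the 6 libraries (columns, fatty acid left of control), coloured by log2(FPKM + 0.5) minus the gene's mean in the control libraries. In every chaperone row all 3 fatty acid columns are above the control mean, and SDF2L1 stands out for its high value in control replicate 1.

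Protein disulfide isomerases form and shuffle disulfide bonds in the lumen. Of 5 genes, 3 were higher in fatty acid libraries and 0 lower, with a median log2 fold change of 0.43, and the summed level was 849 ± 15.2 FPKM in fatty acid and 653 ± 22.0 FPKM in control libraries (SD, n = 3 each). PDIA6, an isomerase that also attenuates IRE1, had 169, 175 and 163 FPKM in the fatty acid libraries, against 117, 121 and 117 FPKM in the control libraries. PDIA3 (ERp57), which works on glycoproteins held by calnexin and calreticulin, had 157, 161 and 154 FPKM in the fatty acid libraries, against 105, 115 and 110.1 FPKM in the control libraries. PDIA4 (ERp72) had 233, 237 and 232 FPKM in the fatty acid libraries, against 185, 171 and 166 FPKM in the control libraries. In all 3 genes the fatty acid libraries agreed closely and stood clear of the controls. These amounted to log2 fold changes of 0.51 ± 0.05 for PDIA6 (adjusted p = 0.00102), 0.51 ± 0.05 for PDIA3 (adjusted p = 0.00135) and 0.43 ± 0.05 for PDIA4 (adjusted p = 0.00376), and 25.2% of the exonic bases of PDIA6 overlap a gene on the opposite strand.

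P4HB, the founding isomerase and a subunit of collagen prolyl 4-hydroxylase, had 283, 289 and 283 FPKM in the fatty acid libraries, against 267, 231 and 241 FPKM in the control libraries. The groups did not overlap, but control replicate 1 came close to the fatty acid libraries, and the log2 fold change of 0.21 ± 0.06 was not called (adjusted p = 0.0621). The adjusted p was 0.0144 without control replicate 1, 0.046 at a minimum of 2 FPKM, 0.0337 under TPM and 0.0128 with voom. TXNDC5 gave 0.02 ± 0.10 (95% interval -0.21 to 0.26; adjusted p = 0.911) and was below 0 under 6 alternatives. Of its exonic bases 60.6% are shared with a readthrough gene on the same strand, so its reads may be split or dropped.

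Among the sensors and their transcription factors 2 of 6 were called higher (33.3%) and 0 lower, beside 8.22% higher among all genes tested. The median log2 fold change was 0.19. The summed level was 152 ± 0.223 FPKM in fatty acid and 142 ± 7.08 FPKM in control libraries (SD, n = 3 each, ratio 1.07). XBP1 made up most of that sum. ERN1, which encodes IRE1, had 3.27, 3.53 and 2.81 FPKM in the fatty acid libraries, against 2.65, 2.34 and 2.56 FPKM in the control libraries. EIF2AK3, which encodes PERK, had 6.75, 7.32 and 6.44 FPKM in the fatty acid libraries, against 6.12, 6.74 and 5.67 FPKM in the control libraries. ATF6 had 11.3, 10.5 and 10.3 FPKM in the fatty acid libraries, against 8.92, 9.25 and 8.67 FPKM in the control libraries. The fatty acid libraries lay above the controls for ERN1 and ATF6, whereas the EIF2AK3 groups overlapped. Log2 fold changes were 0.29 ± 0.10 for ERN1 (adjusted p = 0.0993), 0.14 ± 0.08 for EIF2AK3 (adjusted p = 0.305) and 0.24 ± 0.06 for ATF6 (adjusted p = 0.0460). Their 95% intervals were 0.06 to 0.53 for ERN1 and -0.06 to 0.33 for EIF2AK3. ERN1 passed with voom on the recovered reads (0.036).

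XBP1, the most abundant of the sensor group by FPKM, had 94.4, 93.1 and 97.1 FPKM in the fatty acid libraries, against 98.9, 90.03 and 88.3 FPKM in the control libraries. Control replicate 1 was the highest of all 6 libraries and the groups overlapped, with a log2 fold change of 0.04 ± 0.06 (95% interval -0.09 to 0.17; adjusted p = 0.680); the estimate was -0.0028 under median-of-ratios scaling and -0.015 when scaled to nuclear reads. The value sums spliced and unspliced XBP1 mRNA, which a gene-level FPKM cannot separate. CREB3L2, a membrane-bound transcription factor related to ATF6 and known for driving secretory pathway genes, had 19.3, 20.2 and 18.2 FPKM in the fatty acid libraries, against 15.8, 16.5 and 14.6 FPKM in the control libraries. Its groups did not overlap, and the log2 fold change was 0.29 ± 0.07 (adjusted p = 0.0325). Both calls in the sensor group were fragile: that of ATF6 was lost in 12 of 17 alternatives, among them each of the 6 left-out libraries (adjusted p 0.059 to 0.173), and that of CREB3L2 in 7, without any 1 fatty acid replicate or control replicate 3 among them (0.0576 to 0.131). WFS1, an ER membrane protein that restrains ATF6, gave 0.09 ± 0.06 (adjusted p = 0.321).

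The level of HSPA5 relative to XBP1 was 3.84, 4.08 and 3.48 in the fatty acid libraries, against 2.55, 2.67 and 2.72 in the control libraries, as a ratio of FPKM within each library. The ratio of HSP90B1 to EIF2AK3 was 61.8, 58.0 and 61.6 in fatty acid libraries, against 42.6, 41.7 and 48.0 in control libraries. Neither ratio overlapped between groups, and a scaling factor per library leaves both as they are. In each ratio a called gene is set over a gene that was not called, so the gap largely restates the values above. Ratios of other gene pairs are not given for comparison.

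**Figure D4:**
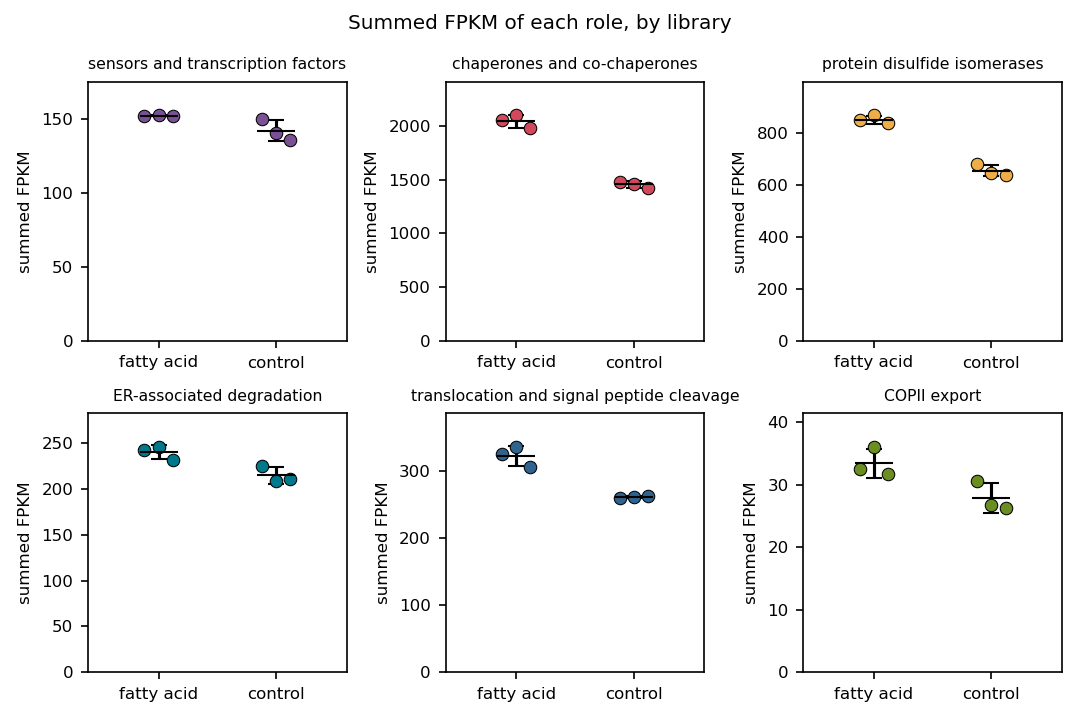
Summed FPKM over the genes of each role (y axis, from 0) in the 3 fatty acid libraries (left) and the 3 control libraries (right), with points for libraries, horizontal lines for means and bars for ± SD. Chaperones stand at 1975 to 2097 FPKM in fatty acid libraries against 1423 to 1479 FPKM in controls, while the sensor sums stand at 152 to 153 FPKM against 136 to 149.9 FPKM. XBP1, averaging 94.9 FPKM in fatty acid and 92.4 FPKM in control libraries, makes up most of the sensor sums.

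ER-associated degradation returns misfolded proteins to the cytosol, with EDEM and OS9 as lectins, SEL1L and SYVN1 (HRD1) as the core ligase and the derlins as part of the exit channel. Of 9 tested genes, 3 were higher in fatty acid libraries and 0 lower, with a median log2 fold change of 0.19; the summed level of the list was 239.7 ± 7.54 FPKM in fatty acid and 214 ± 9.10 FPKM in control libraries (SD, n = 3 each; ratio 1.12). EDEM3, a mannosidase that marks glycoproteins for disposal, had 15.5, 15.2 and 14.6 FPKM in the fatty acid libraries, against 10.4, 11.6 and 10.6 FPKM in the control libraries. SEL1L, the scaffold of the HRD1 ligase, had 28.1, 30.7 and 25.9 FPKM in the fatty acid libraries, against 20.5, 21.1 and 21.3 FPKM in the control libraries. HERPUD1, a ubiquitin-like protein that recruits substrates to the ligase, had 28.1, 31.4 and 26.7 FPKM in the fatty acid libraries, against 24.02, 22.7 and 22.9 FPKM in the control libraries. No fatty acid library fell within the control range in any of these genes. In log2 terms the differences were 0.45 ± 0.06 for EDEM3 (adjusted p = 0.00582), 0.42 ± 0.07 for SEL1L (adjusted p = 0.0110) and 0.30 ± 0.07 for HERPUD1 (adjusted p = 0.0339). SEL1L was not called without fatty acid replicate 1 (0.059), and HERPUD1 was lost in 7 alternatives, including those without fatty acid replicates 1 or 2 or control replicates 2 or 3 (0.0716 to 0.112), so that EDEM3 remained the 1 called gene of the role without fatty acid replicate 1.

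The ligase itself and the lectin OS9 gave estimates at about 0. SYVN1 had a log2 fold change of -0.02 ± 0.09 (95% interval -0.22 to 0.18) and OS9 of 0.02 ± 0.05 (-0.10 to 0.15), with adjusted p of 0.899 and 0.779; both signs turned under some scalings. DERL1, EDEM1, DERL2 and EDEM2 gave 0.20, 0.18, 0.19 and 0.14, with adjusted p between 0.0871 and 0.249; DERL1 passed under TPM (0.0354). DERL3 was listed at 0 in all 6 libraries and was not tested, and 77.0% of its exonic bases overlap SMARCB1 on the opposite strand.

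Genes of entry into the ER rose in a part of the list: 5 of 8 were higher in fatty acid libraries and 0 lower, with a median log2 fold change of 0.35 and a summed level of 322 ± 15.0 FPKM in fatty acid and 261 ± 1.52 FPKM in control libraries (SD, n = 3 each; ratio 1.23). SSR3, a subunit of the translocon-associated TRAP complex, had 48.1, 51.3 and 45.1 FPKM in the fatty acid libraries, against 35.8, 34.2 and 33.7 FPKM in the control libraries. SSR1, another TRAP subunit, had 23.1, 24.3 and 22.4 FPKM in the fatty acid libraries, against 16.9, 18.1 and 16.8 FPKM in the control libraries. SEC61A1, the pore of the Sec61 channel, had 92.7, 92.5 and 89.7 FPKM in the fatty acid libraries, against 77.7, 69.1 and 69.4 FPKM in the control libraries. The groups were apart in each. Log2 fold changes were 0.47 ± 0.06 for SSR3 (adjusted p = 0.00428), 0.42 ± 0.06 for SSR1 (adjusted p = 0.00560) and 0.35 ± 0.06 for SEC61A1 (adjusted p = 0.0124). SPCS2, a subunit of the signal peptidase, had 13.4, 14.4 and 13.97 FPKM in the fatty acid libraries, against 9.35, 10.5 and 11.7 FPKM in the control libraries. SPCS3, another signal peptidase subunit, had 27.2, 25.95 and 24.7 FPKM in the fatty acid libraries, against 19.8, 20.9 and 19.95 FPKM in the control libraries. Again no library of either group fell within the range of the other, with log2 fold changes of 0.39 ± 0.09 for SPCS2 (adjusted p = 0.0275) and 0.35 ± 0.06 for SPCS3 (adjusted p = 0.0101). Without fatty acid replicate 1 or 2 the calls of SEC61A1 (0.0686 and 0.0644), SPCS3 (0.0607 and 0.0552) and SPCS2 (0.0879 and 0.111) were lost, leaving 2 called genes of the role; SPCS2 was also lost without fatty acid replicate 3 (0.0758) or control replicate 2 (0.0541).

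The small Sec61 subunits SEC61G and SEC61B gave 0.26 ± 0.12 (adjusted p = 0.186) and 0.19 ± 0.08 (0.176). SEC61B passed without control replicate 3 (0.0343) and under TPM (0.0472). SPCS1, a further signal peptidase subunit, had 21.6, 22.95 and 22.02 FPKM in the fatty acid libraries, against 23.3, 23.6 and 24.04 FPKM in the control libraries. Every fatty acid library was below every control library, yet the log2 fold change of -0.09 ± 0.05 was not called (adjusted p = 0.272), turned to 0.045 under TPM, and 58.1% of its exonic bases overlap genes on the opposite strand. In export, SEC24D, a cargo-binding subunit of the COPII coat, had 8.98, 9.601 and 8.58 FPKM in the fatty acid libraries, against 6.33, 6.496 and 6.26 FPKM in the control libraries. The 3 fatty acid libraries were all above the controls, with a log2 fold change of 0.48 ± 0.07 (adjusted p = 0.00553). SEC23B, a subunit of the inner coat, gave 0.18 ± 0.09 (adjusted p = 0.220).

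Calls were also counted by expression level. Among genes with a mean over 100 FPKM, 8 of 9 ER genes were higher, with P4HB the exception, beside 21.7% of 281 genes tested in that range. From 0.5 to 10 FPKM it was 4 of 8, beside 5.05% of all genes tested, and between 20 and 50 FPKM 7 of 15, beside 19.7%. The median coefficient of variation of the ER genes between replicates was 4.06% in fatty acid and 6.12% in control libraries, beside 7.10% and 10.5% for all genes tested, whose levels are mostly lower. The 14 genes called under all 17 alternatives were HSP90B1, HSPA5, CALR, CANX, HYOU1, MANF, DNAJC3, PDIA3, PDIA4, PDIA6, EDEM3, SSR1, SSR3 and SEC24D. These alternatives reuse the same 6 libraries and are not independent checks. The share of all genes tested that stayed called under all 17 is not given here.

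**Figure D5:**
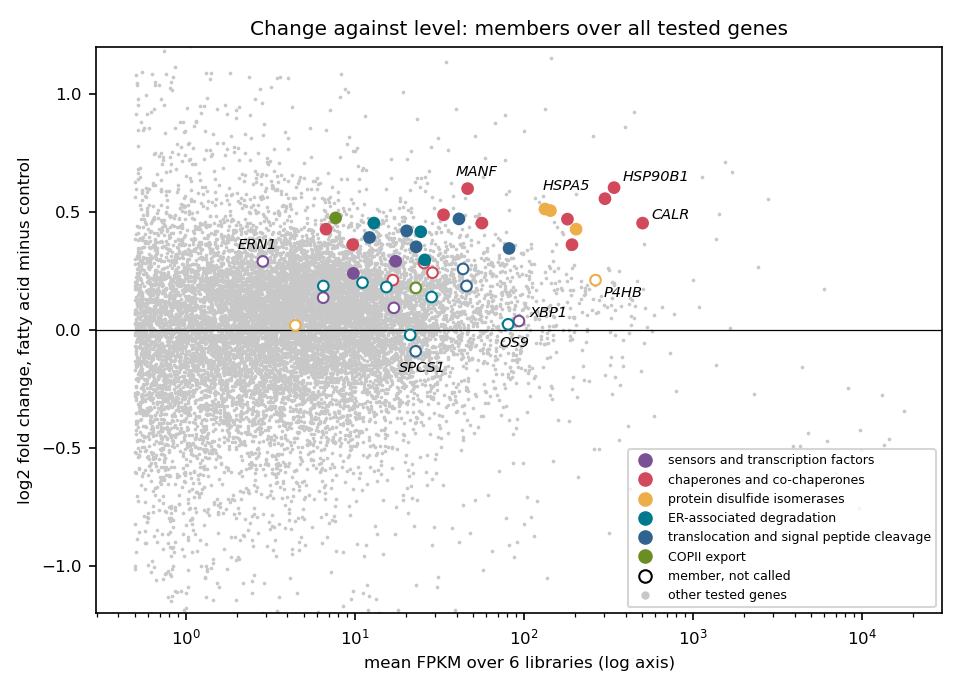
Log2 fold change (fatty acid minus control, y axis, cut at 1.2 either side of 0, with genes beyond not drawn) against mean FPKM over the 6 libraries (x axis, log scale) for the ER genes, coloured by role, over all tested genes in grey. Filled points passed the threshold; the most abundant ER genes lie at log2 fold changes of 0.36 to 0.60 apart from P4HB.

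Neighbouring genes of the same pathway, in 8 further lists of 145 genes, gave 34 of 139 tested genes higher (24.5%) and 1 lower, with a median log2 fold change of 0.14. Across all genes tested, 8.22% were higher and 4.68% lower, with a median of 0.04. The share higher over all genes was 14.3% at 10 to 20 FPKM and 19.7% at 20 to 50 FPKM. Other COPII genes, at 14.3%, other degradation genes, at 12%, and other regulators, at 7.14%, lay near these shares. Other translocation genes, at 23.5%, and other disulfide and prolyl folding enzymes, at 26.3%, were not far above the 19.7%. Values in parentheses here are the log2 fold change and then the adjusted p. N-glycosylation and glycoprotein quality control had 9 of 18 higher and 0 lower (median 0.20), among them STT3B and STT3A, the catalytic subunits of the oligosaccharyltransferase (0.46, adjusted p = 0.00207, and 0.37, 0.0106), and its subunit OSTC (0.42, 0.0148). Other chaperone cofactors had 4 of 12 higher, led by the calcium-binding proteins RCN1 (0.62, 0.000374) and CALU (0.42, 0.00216) and by HSPA13, an HSP70 relative (0.51, 0.0128). RCN1 thus had a log2 fold change as large as that of HSP90B1. Other translocation genes had 4 of 17 higher (median 0.22), among them SRP72 (0.36, 0.00640), TRAM1 (0.37, 0.0173) and SEC63 (0.38, 0.0204). Other disulfide and prolyl folding enzymes had 5 of 19 higher (median 0.15), including the oxidase ERO1A (0.40, 0.0129). Other COPII genes had 3 of 21 higher, among them the cargo receptor pair LMAN1 (0.40, 0.00567) and MCFD2 (0.40, 0.00345), and 1 lower, SEC31B (-0.72, 0.0255). Other degradation genes had 3 of 25 higher (median 0.06; ERLIN1 0.45, 0.00994), and other regulators 1 of 14, the kinase MAP3K5 (0.44, 0.0100).

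The PERK branch was mixed, with 5 of 13 genes higher, 0 lower and a median log2 fold change of 0.17. ATF4, its transcription factor, averaged 90.7 ± 2.41 FPKM in fatty acid libraries and 75.96 ± 5.74 FPKM in control libraries (SD, n = 3 each; log2 fold change 0.26, adjusted p = 0.0392). DDIT3, which encodes the death-associated factor CHOP, averaged 10.9 ± 0.695 FPKM in fatty acid libraries and 10.6 ± 1.52 FPKM in control libraries (0.05 ± 0.10, 95% interval -0.19 to 0.29, adjusted p = 0.792). TRIB3, a pseudokinase induced by ATF4 and CHOP, averaged 10.3 ± 0.853 FPKM in fatty acid libraries and 6.05 ± 0.954 FPKM in control libraries (0.73, 0.00907), and the amino acid response genes ASNS and CHAC1 gave 0.82 (0.0152) and 0.85 (0.0182). All 3 of these had larger log2 fold changes than any of the 44 ER genes, at FPKM levels below that of HSPA5. CHAC1 was near the expression minimum, averaging 1.42 FPKM in fatty acid and 0.56 FPKM in control libraries. Its control value rests on 32 reads in all, and its lowest library held 6. Within libraries, HSPA5 over DDIT3 was 32.6, 37.5 and 29.5 in the fatty acid libraries, against 24.5, 26.01 and 19.6 in the control libraries. Here too a called gene is set over 1 that was not called.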

How the data were processed

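Per the labels' protocols, a stranded mRNA kit was used with 100 ng of RNA. Per the submitters' processing notes, the tools were Subread 1.5.1 (featureCounts) and STAR 2.5.2, on GRCh38; the strand setting is not stated there. The authors deposited FPKM values (fragments per kilobase and per 1 M reads) for 58037 gene rows, per the file headers. FPKM times gene length came out as whole reads in 100% of resolvable values (tolerance 0.02), which gave the depths. All 14661 genes averaging 0.5 FPKM or more entered a limma 3.58.1 fit (R 4.3.3; intensity trend, no covariate) of log2(FPKM + 0.5), and p-values were adjusted over them (Benjamini-Hochberg, threshold 0.05). Fold changes are on that scale and understate changes of low genes. A p after a gene is this adjusted p; values run from replicate 1 to 3. The fit was also run on simulated reads with a spread shared by all genes, which does not show its error rate in these libraries. Same-numbered libraries deviated together little (correlations 0.012, 0.084 and 0.022), so no pairing was used. Alternatives were pseudocounts of 0.1 and 1, no filter, a minimum of 2 FPKM, 4 scalings (median of ratios, quantile, TPM, nuclear reads), no trend, voom on recovered reads, a replicate block, and each library left out. The 44 genes, their roles and the other lists were chosen with earlier results of these data known. Genes called, the sensors, HSPA5, HSP90B1 and CALR have values in every library; elsewhere the genes with the largest changes or, in other lists, up to 3 with the smallest adjusted p were named, and further ones after their values were seen. Promoters came from RefSeq (GRCh38.p14); exon overlap came from GENCODE (GRCh38).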

Additional observations from a re-analysis of the deposited data

How the results depend on the processing

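With 3 libraries a group an exact two-sided permutation test cannot go below 0.1. That value is reached only where the groups do not overlap, so it adds nothing to the counts of such groups. It was reached by 31 of the 43 ER genes, including SPCS1, which was lower in fatty acid libraries. Groups did not overlap, in either direction, in 37.1% of all genes tested. The number of ER genes called lower was 0 under all 17 alternatives, and the number called higher ranged from 14 to 26 over the left-out libraries. Under TPM the median of all genes was 0.16, beside 0.04 as reported, and the ER genes stood at 0.45, beside 0.30. Without an expression filter 977 genes were called (640 higher, 337 lower), without the trend 1101 (642 higher) and with voom 2999 (1846 higher, 1153 lower). The number higher was 778 under median-of-ratios scaling, 758 under quantile normalization, 695 when scaled to nuclear reads and 2231 under TPM, with 377 lower. Over the left-out libraries the totals ran from 463 to 1629 (230 to 1109 higher, 233 to 686 lower); without fatty acid replicate 2 it was 484, without fatty acid replicate 3 it was 913 and without control replicate 3 it was 1041. Sensors called higher numbered 2 as reported, 0 without a filter, under quantile normalization or without the trend, 1 under median-of-ratios scaling or scaled to nuclear reads, and 0 to 1 over the left-out libraries. Degradation genes called higher ranged from 1 to 3 and translocation genes from 2 to 6 over the left-out libraries. The cause of these shifts was not tested.

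With the replicate number as a block, although the numbers do not pair the samples, 23 ER genes were higher, of which 22 were among the 24, with 817 genes higher and 657 lower in all and 1 sensor called. The sign turned in estimates near 0. XBP1 gave -0.0028 under median-of-ratios scaling and -0.015 scaled to nuclear reads. TXNDC5 gave -0.017 and -0.029 under those, -0.0039 under quantile normalization, and -0.032 to 0.108 over the left-out libraries, below 0 without fatty acid replicate 1 or 2 or control replicate 3. OS9 gave -0.017, -0.026 and -0.029 under median-of-ratios, quantile and nuclear-read scaling. SYVN1 gave 0.12 under TPM and -0.081 to 0.075 over the left-out libraries, above 0 without fatty acid replicate 1 or control replicate 1, and SPCS1 gave 0.045 under TPM. Depth is not equal between libraries, and the shallowest, control replicate 2, had 6.33 M reads.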

Other observations

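Outside the 44 genes, 33 further genes held ERSE or ERSE-II in the 250 bases before a RefSeq start, and 19 of them were tested. Of these, 4 were higher and 1 lower in fatty acid libraries, with a median log2 fold change of 0.02, beside 0.04 for all genes tested. The 4 were SHCBP1 (0.50, adjusted p = 0.0169), PLS3, an actin bundler (0.36, 0.00492), SYNPO, an actin-associated protein (0.26, 0.0247), and EIF2A, a translation factor (0.25, 0.0311). TMEM120A was the 1 lower (-0.35, 0.0183). Genes of the ER with an element were among those not called: SERP1, a stress-associated translocon protein, gave 0.18 ± 0.06 (adjusted p = 0.111), FICD, which adds AMP to BiP, 0.22 ± 0.12 (0.2503), and the oxidase ERO1B 0.12 ± 0.11 (0.519). All genes in this paragraph were named after their values were seen.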
